A study of Homo sapiens with 2 samples.

Results

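The enzymes of cholesterol synthesis from acetyl-CoA to cholesterol, the enzymes that make and desaturate fatty acids, and the SREBP factors that control both were followed in the RNA-Seq of untreated HEK293T cells. HEK293T is an established human cell line that was raised from embryonic kidney and expresses the large T antigen of SV40. The members were 28 genes chosen by name, and 27 of them were matched to a row among the 57736 genes of the tables. The remaining gene, ACACA, an acetyl-CoA carboxylase that makes malonyl-CoA for fatty acid synthesis, was not found under its identifier in GENCODE release 44. The tables may hold it under the identifier of an older release, so ACACA was not analysed here. The listed genes are not every enzyme of these routes. The data comprised 1 group of 2 replicates of wild type cells, grown in a medium with fetal bovine serum, so the comparisons were made between genes and between the replicates. The labels do not say whether the replicates came from separate cultures, and errors are therefore the spread between these samples, which may be technical. The replicates held 10593491 and 10104118 estimated counts, and at this depth 0 reads of a gene allow up to 3 counts, or 0.283 and 0.297 CPM. PCR copies are not independent molecules, so this limit covers counting error alone.

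Animal cells build cholesterol from acetyl-CoA through mevalonate, isoprenoid diphosphates, squalene and lanosterol. The supply is set by feedback. SREBP precursors sit in the membrane of the endoplasmic reticulum bound to SCAP, INSIG proteins hold SCAP there when sterols are plentiful, and in their absence SCAP carries SREBP to the Golgi, where proteases free the part that enters the nucleus and activates these genes. The SREBP encoded by SREBF2 acts mainly on cholesterol synthesis and the forms encoded by SREBF1 mainly on fatty acid synthesis, which starts from citrate through ACLY, the acetyl-CoA carboxylases, FASN and SCD.

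The whole route measured here was expressed. All 27 members with a row were detected, that is, had a TPM (the share of transcripts after scaling by length) of at least 1 in both replicates, whereas 27.7% of all genes and 63.7% of protein-coding genes were. In bulk RNA, fewer expressing cells and less RNA per cell cannot be told apart. The mean TPM of 21 of the 27 members was above 21.2, the median of the 12345 detected protein-coding genes. Levels ran from 5.80 for INSIG2 to 232 for FASN, with a median of 47.1. The 3 fatty acid genes had a median of 198 TPM, the 3 squalene and lanosterol enzymes of 74.2, the 8 enzymes from lanosterol to cholesterol of 61.4, the 5 genes of the SREBP system of 47.1, and the 7 enzymes of the mevalonate steps of 34.1. The members added up to 0.193% ± 0.002 of all TPM (SD, n = 2, as for all errors below). In estimated counts, which are not scaled by length, their share was 0.385%.

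**Figure D1:**
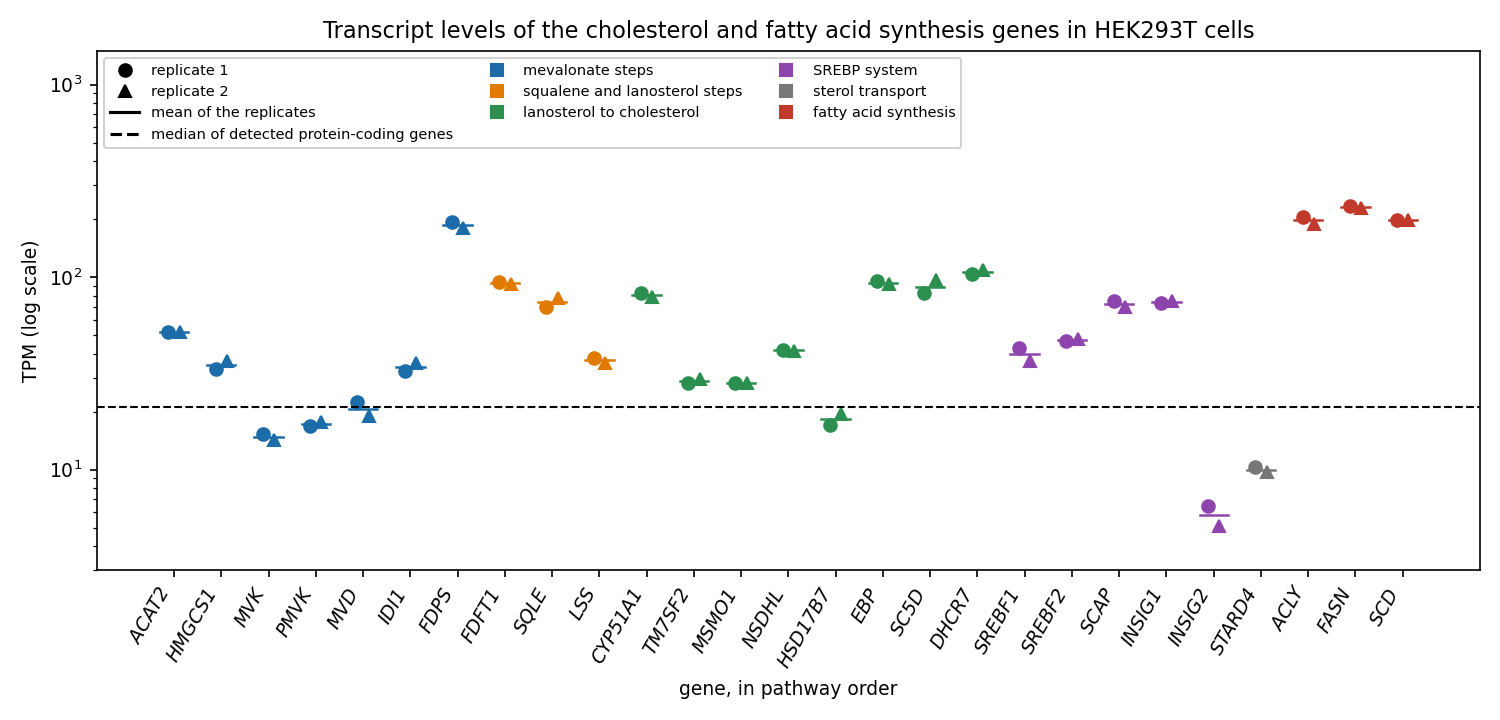
TPM (log axis) of the 27 members in each replicate, in the order of the pathway, with the mean of the replicates as a short bar. The 3 fatty acid genes and FDPS lie between 180 and 235 TPM, and 6 members have a mean below the dashed line, the median of detected protein-coding genes (21.2 TPM).

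The weight of the groups differed between scales. Of the members' TPM, 32.5% ± 0.574 came from FASN, SCD and ACLY, and 54.5% ± 0.832 from the 18 cholesterol enzymes. In estimated counts the order was the opposite, with 57.2% ± 0.0597 from the 3 fatty acid genes and 30.7% ± 0.125 from the 18 cholesterol enzymes. The median estimated transcript length was 5362 nt for the former and 1569 nt for the latter. The 5 genes of the SREBP system gave 12.4% of the members' TPM and 11.7% of their counts.

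Promoters are shown for the enzymes with the highest and the lowest TPM of the mevalonate steps (FDPS and MVK), and for both pairs of sister genes of the SREBP system. The sequences are those of RefSeq on GRCh38.p14, from 250 bases before to 50 bases after the start, and 23 of the 27 members had an entry there. Each is written along the strand of its gene, and capitals mark matches, on either strand, to TCACNCCAC (a consensus of the sterol regulatory element that SREBP binds), to CCAAT (the box bound by NF-Y, which appears as ATTGG on the other strand) or to CACGTG (the palindromic E-box).
SREBF2 (chr22:41832855-41833154): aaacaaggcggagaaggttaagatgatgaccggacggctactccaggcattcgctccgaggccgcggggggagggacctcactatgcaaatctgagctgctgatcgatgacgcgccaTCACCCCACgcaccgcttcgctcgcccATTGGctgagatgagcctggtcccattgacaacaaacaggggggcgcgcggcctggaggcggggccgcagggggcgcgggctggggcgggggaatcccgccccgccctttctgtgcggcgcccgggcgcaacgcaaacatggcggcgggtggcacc
SREBF1 (chr17:17836937-17837236): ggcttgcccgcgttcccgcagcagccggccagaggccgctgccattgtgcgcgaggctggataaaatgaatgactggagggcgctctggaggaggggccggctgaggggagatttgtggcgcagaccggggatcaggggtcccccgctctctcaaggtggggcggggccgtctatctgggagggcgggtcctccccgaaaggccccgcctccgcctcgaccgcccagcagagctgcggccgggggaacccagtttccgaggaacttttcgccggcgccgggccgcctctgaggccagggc
INSIG1 (chr7:155297628-155297927): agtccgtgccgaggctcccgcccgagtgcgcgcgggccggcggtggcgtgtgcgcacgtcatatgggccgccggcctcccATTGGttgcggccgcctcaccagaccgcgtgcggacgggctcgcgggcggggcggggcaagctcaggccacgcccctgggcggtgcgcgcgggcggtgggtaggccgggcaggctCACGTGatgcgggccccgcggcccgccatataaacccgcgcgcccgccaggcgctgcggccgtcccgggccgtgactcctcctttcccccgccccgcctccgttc
INSIG2 (chr2:118088221-118088520): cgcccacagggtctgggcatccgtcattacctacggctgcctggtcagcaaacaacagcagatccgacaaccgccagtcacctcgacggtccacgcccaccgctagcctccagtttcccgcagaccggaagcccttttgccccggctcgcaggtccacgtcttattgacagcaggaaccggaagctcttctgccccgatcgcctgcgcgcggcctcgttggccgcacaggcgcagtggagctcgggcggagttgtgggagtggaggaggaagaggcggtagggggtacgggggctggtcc
FDPS (chr1:155308616-155308915): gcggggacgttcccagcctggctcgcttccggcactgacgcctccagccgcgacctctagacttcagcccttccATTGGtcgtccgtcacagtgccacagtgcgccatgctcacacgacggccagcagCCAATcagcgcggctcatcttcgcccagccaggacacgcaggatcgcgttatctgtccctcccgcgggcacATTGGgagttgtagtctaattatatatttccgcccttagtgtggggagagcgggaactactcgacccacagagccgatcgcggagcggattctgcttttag
MVK (chr12:109573544-109573843): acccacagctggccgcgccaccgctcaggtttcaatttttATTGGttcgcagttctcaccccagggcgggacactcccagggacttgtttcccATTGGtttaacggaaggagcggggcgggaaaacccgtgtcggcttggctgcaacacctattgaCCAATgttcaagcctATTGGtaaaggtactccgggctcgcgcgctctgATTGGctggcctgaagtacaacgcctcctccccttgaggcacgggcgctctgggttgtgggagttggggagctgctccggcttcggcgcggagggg
The window of SREBF2, on the plus strand of chromosome 22, held the only match to TCACNCCAC among the 23 members with an entry, at position -133 from the start, with 1 CCAAT box at position -106. The window shown for SREBF1, on the minus strand of chromosome 17, held none of the marked motifs. The members had 30 windows in all, 1 is shown for each of these genes, and starts without an entry were not searched. INSIG1, on the plus strand of chromosome 7, had 1 CCAAT box and 1 E-box, and INSIG2, on the plus strand of chromosome 2, had neither. FDPS, on the plus strand of chromosome 1, had 3 CCAAT boxes and MVK, on the plus strand of chromosome 12, had 5.

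A CCAAT box was present in a window of 18 of the 23 members with an entry (78.3%), against 42.1% of 15843 protein-coding genes. The 5 members without it were CYP51A1, INSIG2, PMVK, SCAP and SREBF1, whose mean TPM spanned 5.80 to 81.1, so that levels of members with and without the box overlapped. The GC box GGGCGG, the site of Sp1, was in windows of 22 of the 23 members (95.7%) against 64.3% of protein-coding genes. The E-box was in windows of 4 members (INSIG1, LSS, SC5D and SCAP, 17.4%) against 10.9%, and TCACNCCAC in 1 (4.35%) against 1.51%. The protein-coding genes compared were taken whether or not they were detected here, and were not matched to the members in level or base composition. Whether these shares are particular to the pathways was therefore not tested. Both strands were searched, and no match overlapped one of another motif. These are matches of letters in a short window, and a missing match says only that the letters are not in it.

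The mevalonate steps held the widest range of the cholesterol enzymes. ACAT2, the cytosolic thiolase that joins acetyl-CoA units, measured 51.9 TPM in replicate 1 and 51.8 in replicate 2. HMGCS1, the synthase that adds the next unit, measured 33.2 and 36.8 TPM. In TPM the level of ACAT2 was above that of HMGCS1 in both replicates, with no overlap. Its estimated counts (707 and 667) were below those of HMGCS1 (761 and 784). The enzymes that turn mevalonate into isopentenyl diphosphate followed at lower TPM. The kinase MVK measured 15.3 and 14.3 TPM, the second kinase PMVK 16.9 and 17.6 TPM, and the decarboxylase MVD 22.5 and 19.0 TPM. All 3 had means below the median of detected protein-coding genes, and MVK had the lowest mean TPM of the enzymes among the members. In estimated counts, which are not scaled by length, MVK (219 and 187) was above PMVK (155 and 156). With reads divided by the length of the canonical transcript, as described below, PMVK came to 34.5, above HMGCS1 at 32.1. MVK (15.9) and MVD (27.7) stayed below HMGCS1 on that scale. IDI1, which isomerises isopentenyl diphosphate, measured 32.6 and 35.6 TPM. FDPS, which builds farnesyl diphosphate from these units, measured 192 and 180 TPM and was the highest of the 18 cholesterol enzymes in TPM. Its mean of 186 ± 8.84 TPM stood at percentile 95.4 of the detected protein-coding genes. By mean estimated counts FDPS (1120) was below DHCR7 (1385.5), CYP51A1 (1333) and SQLE (1288). The ratio of FDPS to MVK was 12.6 in either replicate in TPM, and 11.1 ± 0.808 by canonical length.

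The branch into sterols began at levels between those extremes. FDFT1, the squalene synthase, measured 93.9 and 92.6 TPM. SQLE, the epoxidase that makes the first oxygen-dependent step, measured 70.4 and 78.0 TPM. LSS, the cyclase that folds the product into lanosterol, measured 38.2 and 35.8 TPM. Replicates of these 3 enzymes did not overlap, and the levels were lower from each of them to the next. SQLE differed in direction between scales. It had fewer counts in replicate 2 (1216) than in replicate 1 (1360) but a higher TPM, since the transcript length estimated for it was 2639 nt in replicate 1 and 2218 nt in replicate 2.

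From lanosterol on, the first enzyme and the last 3 had mean levels of 81.1 to 106 TPM, and the 4 between them of 18.3 to 41.7 TPM. CYP51A1, the lanosterol demethylase and a cytochrome P450, measured 83.0 and 79.2 TPM. TM7SF2, a sterol reductase, measured 28.1 and 29.6 TPM. The enzymes that remove the paired methyl groups were lower than CYP51A1 throughout. MSMO1, the oxidase of that step, measured 28.2 and 28.0 TPM. NSDHL, its dehydrogenase, measured 42.0 and 41.4 TPM, and HSD17B7, its ketoreductase, 17.1 and 19.5 TPM. HSD17B7 was the lowest enzyme of this segment and the only one with a mean below the median of detected protein-coding genes. The last enzymes were high again. EBP, the isomerase of the sterol ring, measured 95.3 and 91.9 TPM. SC5D, a desaturase, measured 82.7 and 96.1 TPM. DHCR7, the reductase that ends one branch of the route, measured 104 and 108 TPM, and its ratio to HSD17B7 was 5.82 ± 0.347. The level of SC5D rests on its estimated length, as described below.

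In the SREBP system SCAP and INSIG1 had means of 72.5 and 74.0 TPM, the factors themselves were lower at 39.8 and 47.1 TPM, and INSIG2 was lowest at 5.80 TPM. SREBF2 (chromosome 22, 42229109 to 42303310 on GRCh37) measured 46.7 and 47.5 TPM. SREBF1 (chromosome 17, 17713713 to 17740316) measured 43.0 and 36.6 TPM. The lower replicate of SREBF2 was above the higher replicate of SREBF1. SCAP, the escort of the precursors, measured 74.9 and 70.2 TPM. INSIG1, which retains SCAP and is itself a target of SREBP, measured 73.1 and 74.8 TPM and overlapped with SCAP. By mean estimated counts SREBF2 (1615) was above SCAP (1400) and INSIG1 (1070). By the length of the canonical transcript SREBF2 came to 68.5, below SCAP at 73.1 and INSIG1 at 81.9. INSIG2 (chromosome 2, 118846028 to 118868573), the sister that also retains SCAP, measured 6.50 and 5.09 TPM from 109 and 94 counts. INSIG2 was the lowest member in both replicates, at percentile 19.6 of the detected protein-coding genes, and varied most between them, with an SD of 17.2% of its mean. STARD4, which carries cholesterol between membranes, was the next lowest with 10.3 and 9.75 TPM.

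The genes of fatty acid synthesis were the highest members. FASN (chromosome 17, 80036214 to 80056170), the synthase that assembles palmitate, measured 235 and 228 TPM from 10224 and 9932 counts. ACLY (chromosome 17, 40023170 to 40086795), which cleaves citrate to cytosolic acetyl-CoA, measured 205 and 190 TPM. SCD (chromosome 10, 102106990 to 102124583), which introduces the double bond into saturated fatty acids, measured 199 and 197 TPM. Both values of SCD fell within the range of ACLY, and both values of FASN were above those of ACLY and SCD. All 3 were above percentile 95 of the detected protein-coding genes, at 96.5, 95.7 and 95.7 for FASN, SCD and ACLY.

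Ordered by mean TPM, neighbouring members were separated, with no overlap of their replicates, in 12 of 26 cases. The breaks set FASN above SCD, the group of SCD, ACLY and FDPS above DHCR7, and DHCR7 above EBP. Within the run of EBP, FDFT1, SC5D and CYP51A1 (93.6 to 81.1 TPM) no neighbours were separated, nor within the run of SQLE, INSIG1 and SCAP (74.2 to 72.5 TPM). From NSDHL through SREBF1, LSS and HMGCS1 to IDI1 (41.7 to 34.1 TPM) neighbours overlapped as well. At the lower end PMVK was above MVK, MVK above STARD4 and STARD4 above INSIG2. The ratio of the highest to the lowest member, FASN to INSIG2, was 40.5 ± 6.06.

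Sister genes that share a reaction or a role were compared next. The TPM ratio of SREBF2 to SREBF1 was 1.09 in replicate 1 and 1.30 in replicate 2 (1.19 ± 0.150). It was 3.50 ± 0.0286 in estimated counts, 3.27 ± 0.0268 in counts per length of the canonical transcript, and 1.00 ± 0.0679 in the posterior mean TPM, where SREBF2 was below SREBF1 in replicate 1. The size of this difference, and in replicate 1 its direction, thus depended on the scale used. For INSIG1 to INSIG2 the TPM ratio was 11.3 and 14.7 (13.0 ± 2.44), and means on the other scales were 10.0 to 13.0. ACAT2 was below ACAT1, the mitochondrial thiolase, with a ratio of 0.557 ± 0.0304 in TPM, 0.830 ± 0.0249 in estimated counts and 0.840 ± 0.0252 by canonical length. For IDI1, the sister IDI2 had 1.83 and 5.32 estimated counts, too few for a ratio. The TPM ratio of SCD to SCD5 was 14.3 and 12.9 (13.6 ± 0.998).

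**Figure D2:**
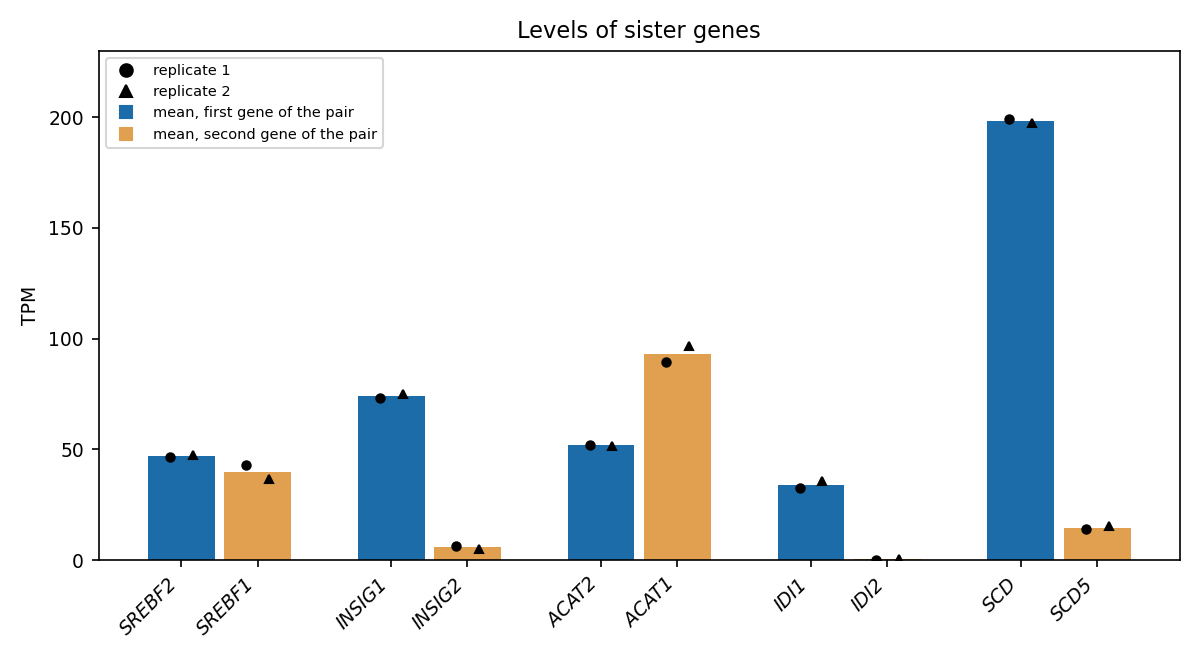
TPM of 5 pairs of sister genes, with the mean as a bar and each replicate as a point (circles for replicate 1, triangles for replicate 2). The members SREBF2, INSIG1, IDI1 and SCD stand above their sisters in both replicates, and ACAT2 stands below ACAT1.

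TPM divides reads by the length of the transcripts that were estimated to be present. For the members this length had a median of 71.7% of the transcript that Ensembl marks as canonical, close to the 72.0% of detected protein-coding genes. It was below 50% for 2 members. For SC5D it was 1459 nt or 21.3% of a canonical transcript of 6854 nt, and for SREBF1 it was 1639 nt or 33.4% of 4901 nt. With reads divided by the canonical length, scaled to the same total as TPM over the genes that have one, SC5D came to 29.9 and its rank among the 27 members went from 8 to 20. SREBF1 came to 20.9 and went from rank 16 to 24. PMVK and ACAT2, whose estimated lengths were 128% and 122% of the canonical ones, went up, PMVK from rank 24 to 18 and ACAT2 from 13 to 8. The ranks of IDI1 and TM7SF2 moved by 3, and those of the other 21 members by less. The high level of SC5D next to DHCR7 thus depended on the estimated length, whereas FDPS, ACLY, FASN and SCD were the 4 highest on both scales. The ratio of FASN to SCD was 1.17 ± 0.0187 in TPM but 0.810 ± 0.0104 by canonical length. Which transcripts were present was not analysed here.

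**Figure D3:**
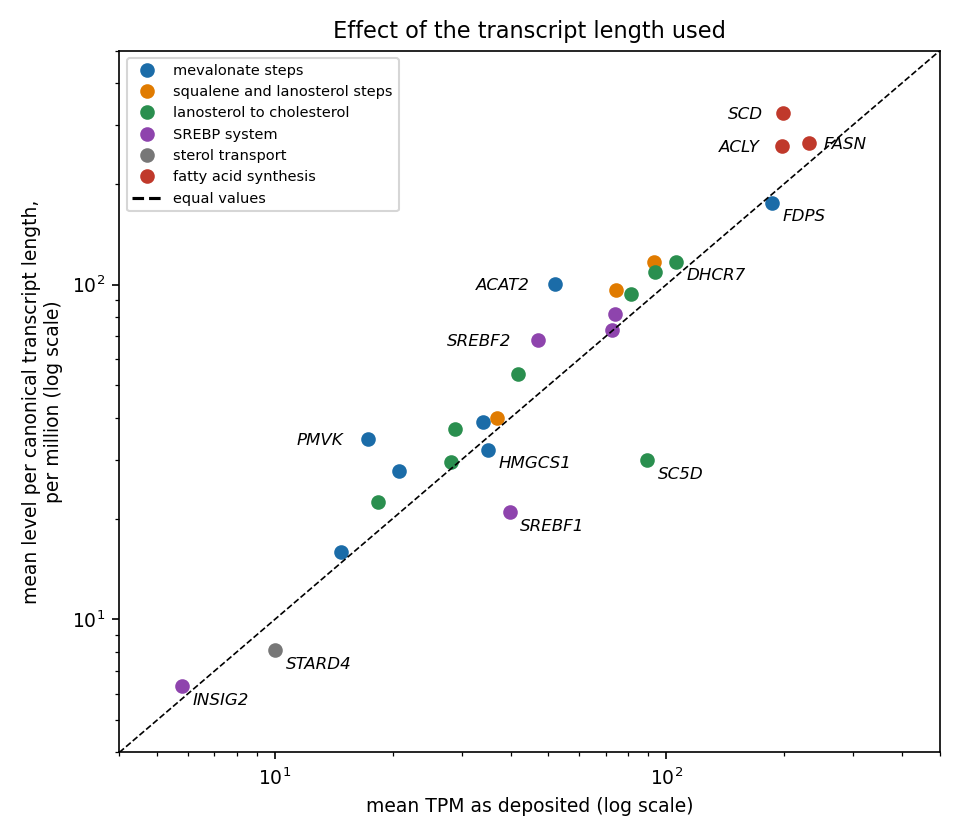
Mean level of each of the 27 members by TPM as deposited (horizontal, log axis) and by counts per length of the canonical transcript, scaled like TPM (vertical, log axis), coloured by pathway segment. SC5D and SREBF1 lie far below the line of equal values, and PMVK and ACAT2 lie above it.

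The replicates were compared gene by gene to see which of these levels differ between the libraries beyond counting error. An exact binomial test (two-sided) compared the rounded counts with what the TMM-scaled library sizes predict, and with Benjamini-Hochberg adjustment over 17920 genes it called 3.88% of all genes tested. It called 1 of the 27 members (3.70%), a share near that background. This was ACLY, with 5312 counts in replicate 1 and 4718 in replicate 2, a log2 ratio of -0.09 and an adjusted p of 0.0367. The call was lost without the filter on low counts (adjusted p = 0.0628 by the same exact test) and when the adjustment covered only genes with whole counts (adjusted p = 0.0915). Under the other scalings and filters its adjusted p lay between 0.00323 and 0.0357.

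Differences of the other members did not pass. IDI1 had 447 and 510 counts, a log2 ratio of 0.27 and an adjusted p of 0.0871 in the exact binomial test. MVD had 258 and 192 counts, a log2 ratio of -0.35 and an adjusted p of 0.170 in the same exact test. MSMO1 had 335 and 259 counts, a log2 ratio of -0.29 and an adjusted p of 0.194 in the same exact test, although its TPM was nearly equal in both replicates. The median absolute log2 ratio of counts was 0.09 for the members and 0.08 for the 10297 tested genes whose summed count reached 203, the lowest of any member. For 9 members the direction of the difference was opposite in counts and in TPM, SQLE, FASN and SCD among them. The test compares these libraries, not conditions.

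**Figure D4:**
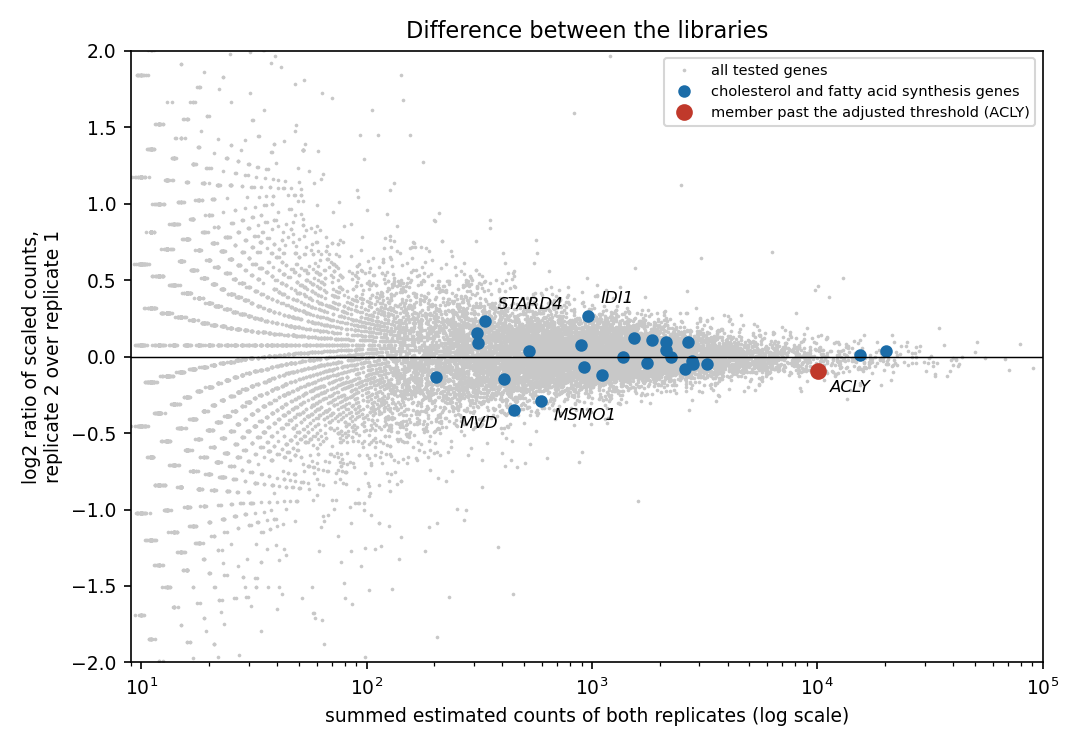
Log2 ratio of scaled counts, replicate 2 over replicate 1, against the summed estimated counts of both replicates (log axis), for all tested genes within a log2 ratio of 2 (grey) and the 27 members (coloured). The members lie within the spread of genes with similar counts, and ACLY, at -0.09 with 10030 counts, is the only one past the adjusted threshold.

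Other genes of the same pathways, from a list of 52, were detected in 47 cases, whereas 63.7% of protein-coding genes were. The isoprenoid branches and sister enzymes had 10 of 11 detected, with a median of 25.6 TPM, and included GGPS1, which makes geranylgeranyl diphosphate, with 74.3 and 70.5 TPM. LBR, a lamin-binding protein that shares the sterol reductase activity of TM7SF2, measured 210 and 206 TPM, above the 28.1 and 29.6 TPM of TM7SF2. All 8 genes of SREBP processing and sterol-regulated turnover were detected, with a median of 27.6 TPM. The Golgi proteases that release SREBP differed, with 68.0 and 58.3 TPM for MBTPS1 and 22.7 and 19.0 TPM for MBTPS2, and the replicates of these genes did not overlap.

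Genes for storing, oxidising, transporting and sensing sterols had a lower median of 10.7 TPM. Of these genes 8 of 11 were detected, beside 63.7% of protein-coding genes. The 3 with a mean above the median of detected protein-coding genes were NPC2 (70.2 and 74.8 TPM), OSBP (50.3 and 43.8 TPM) and SOAT1. SOAT1, which esterifies cholesterol for storage, measured 40.7 and 39.4 TPM, while its sister SOAT2 and the hydroxylase CH25H had 0 counts in both replicates. ABCA1, an exporter of cholesterol, had 0.780 and 0.800 TPM from 61 and 49 counts, below the limit of detection used. Of the genes that supply, elongate and desaturate fatty acids 18 of 19 were detected, with a median of 34.6 TPM. TECR, a reductase of the elongation cycle, measured 211 and 196 TPM, near the levels of ACLY and SCD. HACD3, the dehydratase of that cycle, measured 137 and 138 TPM, and SLC25A1, which exports citrate from mitochondria for ACLY, 91.7 and 91.1 TPM. ACACB, the sister of ACACA at the mitochondrial surface, measured 8.70 and 10.9 TPM. THRSP, a lipogenic regulator of liver and fat, had 5 counts in each replicate. By the exact binomial test with Benjamini-Hochberg adjustment 2 of 49 tested genes (4.08%) differed between the libraries. That share was near the 3.88% of all genes tested. LBR had an adjusted p of 0.0311 in this exact binomial test, and was higher in replicate 2 in scaled counts but not in TPM. ACSS2, which makes acetyl-CoA from acetate, had an adjusted p of 0.0408 in the same exact test and was higher in replicate 1.

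**Figure D5:**
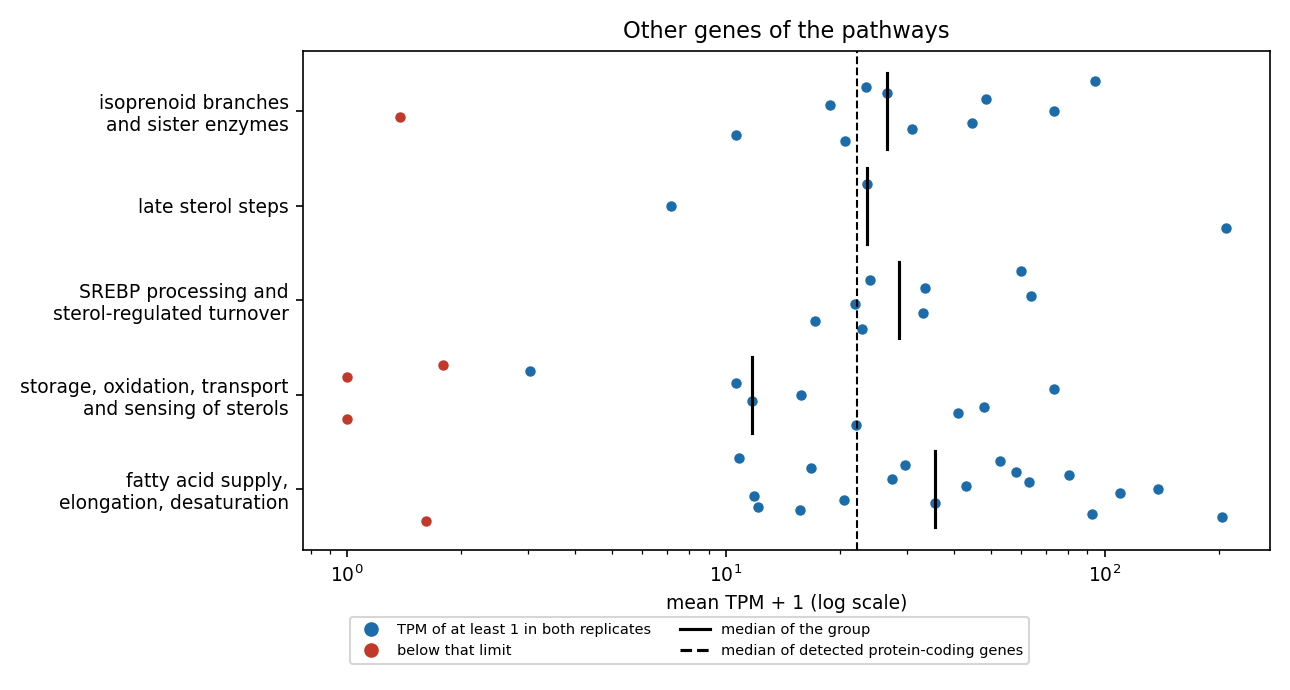
Mean TPM + 1 (log axis) of the 52 other genes of the pathways in 5 groups, with the median of each group as a vertical bar and the median of detected protein-coding genes as a dashed line. The 5 genes below the limit of detection (red) are IDI2, 3 genes of sterol storage, oxidation and export, and THRSP.

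Reads of near-identical or overlapping genes bear on some members. The annotation used here held 17 pseudogene copies of 5 members (IDI1, FDPS, CYP51A1, HSD17B7 and SCD). Together the copies took 0.301% ± 0.0470 of the counts of these 5 members and their copies. HSD17B7P2, a copy on chromosome 10 (38645383 to 38667035), was the only one detected, with 1.53 and 2.22 TPM against 17.1 and 19.5 for HSD17B7. In estimated counts HSD17B7P2 had 12.8 and 21.6, against 150 and 158 for HSD17B7. None of the copies reached the level of its parent. The posterior SD of the count, which describes the uncertainty from sharing reads, was above 1% of the count in 2 members, ACAT2 (11.0 and 10.7 counts) and HSD17B7 (3.37 and 4.70 counts). ACAT2 shares 454 nt of its exons, 17.2%, with TCP1, a chaperonin subunit on the opposite strand with 417 ± 4.20 TPM. FDPS shares 693 nt (18.6%) with RUSC1-AS1 on the opposite strand, which measured 11.4 ± 0.856 TPM. In all, 13 members share exonic bases with another annotated gene, and since the sources used here do not say whether counting used strand, reads of such partners cannot be told apart.

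Markers of kidney, fat and adrenal cortex were at or near 0. None of 5 markers of kidney tubule was detected, and 4 of them, UMOD, SLC12A3, AQP2 and SLC34A1, had 0 counts in both replicates, although the labels give kidney as the tissue of the line. None of 4 adipocyte markers was detected either. PLIN1, the coat protein of fat droplets, had 15 and 11 counts, and ADIPOQ and FABP4 had 0 counts. Of 4 markers of adrenal cortex, which makes steroids from cholesterol, none was detected and CYP11A1 had 0 counts. The summed TPM of the adipocyte markers was 1.13 and 0.620, beside 639 and 615 for FASN, SCD and ACLY.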

How the data were processed

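The 2 libraries were made from poly(A)+ RNA of HEK293T cells with the NEBNext Ultra II RNA kit and sequenced on a HiSeq. Per the submitters' processing notes, the tools were Trimmomatic 0.36, STAR 2.6.1c and RSEM 1.3.1 on GRCh37. The study's methods name featureCounts for counting, but the tables have the columns of RSEM and were treated as its output. The estimated counts deposited by the authors are reads per gene, with reads that fit several genes shared out. The deposited TPM values, given also as posterior means, are reads divided by effective transcript length, with an equal total in both libraries. In the deposited FPKM values reads are divided by length and by library size. A score deposited by the authors gives the posterior SD of each count. A table of pooled reads was only checked, where counts matched the replicates' sum, within 1% or 1 count, for all 27 members with a row.

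Symbols, types, GRCh37 coordinates and canonical lengths came from GENCODE release 44 mapped to GRCh37, which matched 96.1% of 57736 identifiers. Detection required at least 1 TPM in each replicate, and neighbours in an order were separated when their replicates did not overlap. Levels between genes were compared per length. Estimated counts were rounded, scaled by TMM (edgeR 4.0.16 in R 4.3.3) and compared between the libraries by an exact two-sided binomial test (scipy 1.17.1). Benjamini-Hochberg adjustment covered the genes whose summed count reached 10, the threshold was 0.05, and log2 ratios had 0.5 counts added. The test was checked only on data simulated with counting error alone, so that check does not cover other variation between libraries. With 1 group there was no test between conditions.

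Every member could be named, with listed genes of the same pathways, pseudogene copies (a member's symbol followed by P and digits, at most 5 named) and overlapping genes. The members and lists were chosen with earlier results of these data known. A pair of genes of these lists is not reported here. Motifs were searched in promoter windows of RefSeq on GRCh38.p14, no coordinates of which were set against those of GRCh37. Alternatives were other limits of detection, units, scalings, filters and the posterior means, and leaving out each replicate.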

Additional observations from a re-analysis of the deposited data

How the results depend on the processing

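The 27 members were detected at each limit tried, and 46 to 50 of the other genes of the pathways. The members' share of 0.193% of all TPM was 0.385% in estimated counts, 0.277% of the TPM of protein-coding genes, 0.186% in posterior mean TPM, and 0.191% to 0.194% with either replicate left out. The median of the cholesterol enzymes, 39.6 as a mean of the replicate medians, was 38.1 in posterior mean TPM, 28.0 in FPKM and 56.9 with TPM scaled to protein-coding genes, and 39.1 to 40.1 with a replicate left out. The ratio of SREBF2 to SREBF1, 1.19 in TPM, was 1.00 in posterior mean TPM and 3.50 in counts, and 1.09 to 1.30 with a replicate left out. The ratio of INSIG1 to INSIG2, 13.0 in TPM, was 10.0 in posterior mean TPM, and 11.3 to 14.7 with a replicate left out. The number of members that differed between the libraries, 1 in the exact binomial test, was 0 with no filter on low counts and 0 over genes with whole counts only. The share of the copies, 0.301% of the counts of their 5 parent members and the copies, was 0.750% in TPM. It was 0.267% to 0.334% with a replicate left out. Canonical lengths were an alternative chosen after seeing the data, and gave 0.228% for the members' share, 3.27 for SREBF2 to SREBF1, 39.8 for the median and 13.0 for INSIG1 to INSIG2. No paired analysis was possible because there was only 1 group. With 2 libraries of about equal depth, counts near 100, as for INSIG2, limit the precision of the lowest members.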
